A study of Mus musculus with 2 samples.

Results

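The cells described are proliferating regulatory T cells (Tregs) of mouse spleen, picked from single-cell RNA counts as cells that held transcripts of several mitotic genes at once. A cell was kept if it had at least 500 detected genes, at most 10% of its unique molecular identifiers (UMIs) from mitochondrial genes and no UMI of the B cell gene Cd79a. It was called cycling if at least 3 of 7 genes had a UMI in it: Mki67, Top2a, Birc5, Pclaf, Nusap1, Cenpf and Cdk1. This gave 329 cycling cells of 12953 kept cells, 236 of 6902 in the CD25KO library and 93 of 6051 in the CD25WT library. The remaining 6666 and 5958 kept cells are called other cells below.

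The study asked how signalling through the receptor for interleukin-2 (IL-2) bears on the mix of Treg subsets, as the series title puts it. CD25KO cells came from CD25FL/FL mice, in which CD25, the alpha chain of that receptor encoded by Il2ra, can be deleted. CD25WT cells came from CD25WT/WT mice. Mice of both groups were also tdTomato+/+ and Foxp3eGFPCretERT2+/+, so the controls carried the same Cre, which is made under Foxp3 and acts after tamoxifen, and both were given tamoxifen at 2 mg/kg into the peritoneum for 5 days. Induction preceded spleen collection by 10 days, 2 spleens were pooled per group, and live CD4 cells with GFP and tdTomato were sorted. The CD25KO sort had a further gate for low CD25, which the CD25WT cells did not pass through. No difference given below for the pair, in a share or in the level of any gene or list, can therefore be told apart from an effect of the gate. The age and sex of the mice are not given in the sources used here. Each group was 1 library, so no difference between groups was tested, and every interval below is a 95% interval for counting error only.

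The CD25KO library held 36986849 UMIs in 7530 barcodes and the CD25WT library 36971834 UMIs in 6620 barcodes. Cycling cells were deeper than the rest, with medians of 14411 against 4072 UMIs per cell in CD25KO and 14265 against 5193.5 in CD25WT. Doublets were not called or removed. With the 5% of cells richest in UMIs left out of each library, 68 CD25KO and 27 CD25WT cycling cells remained. The libraries shared 107 barcodes, among them 16 CD25KO and 9 CD25WT cycling cells, and 3 of those 9 had over 20-fold fewer UMIs (858 to 1376) than the CD25KO cell of the same barcode.

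Most cycling cells carried T cell receptor components, but some of the CD25WT cells did not. At least 2 of 3 Cd3 genes had a UMI in 230 of 236 CD25KO and in 78 of 93 CD25WT cycling cells. Genes of red cell precursors, 9 in the list, summed to 207 CPM (counts per 1000000 UMIs) in CD25KO and to 17904 CPM in CD25WT cycling cells, against 2658 and 3790 CPM in the other cells of the same libraries. In 10 of 236 CD25KO and 14 of 93 CD25WT cycling cells at least 3 of these 9 genes had a UMI. Main results are therefore also given for cycling cells with at least 2 Cd3 genes and a barcode seen in 1 library, 214 in CD25KO and 71 in CD25WT, called Cd3 cells below. In these the red cell list summed to 149 and 1085 CPM, so most of its UMIs in CD25WT cycling cells lay outside the Cd3 cells. At least 3 of 10 B cell genes were found in 17.4% of cycling and 4.53% of other CD25KO cells, and in 15.1 and 1.21% of CD25WT cells. Their summed level was 404 against 579 CPM in CD25KO, where Ms4a1 was at 0 in cycling cells, and 381 against 295 CPM in CD25WT. Of 10 myeloid genes, at least 3 were found in 1.69% of cycling and 0.435% of other CD25KO cells, and in 4.30 and 0.604% of CD25WT cells, with Lyz2, S100a8 and S100a9 at 0 in cycling cells of both. No cycling cell held 3 genes of the plasma cell, germinal centre B cell or natural killer lists. At least 3 of 6 genes of a CD8 T cell list were held by 15 CD25KO but 0 CD25WT cycling cells, and by 0.885 and 0.0671% of other cells. That list includes Nkg7 and Ccl5, which are also markers of the Th1-type Treg state described below. All 15 cells had at least 2 Cd3 genes. Cd8a itself had a UMI in 2 of 236 CD25KO and 0 of 93 CD25WT cycling cells. These shares were not thinned, and cycling cells were the deeper ones. Without cells holding 2 or more UMIs of defining red cell, myeloid, plasma cell or CD8 genes, 208 of 6643 CD25KO cells (3.13%) and 77 of 5656 CD25WT cells (1.36%) were cycling, a ratio of 2.30. Apart from these shares and the values for Cd3 cells, the part of these lineages in the results was not tested.

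A dividing cell copies its DNA in S phase and then passes through G2 and mitosis (G2/M), each step with its own set of transcripts. Genes of S phase, such as those for the Mcm helicase, are switched on by E2F factors when the retinoblastoma protein is inactivated by cyclin-dependent kinases. Genes of G2/M are held down by the DREAM complex and later switched on by B-Myb and FoxM1, through promoter elements that include the cell cycle genes homology region (CHR) and the CCAAT box. Tregs are known to divide more than conventional CD4 T cells at rest, and effector Tregs, which have met antigen, more than central Tregs, which recirculate through lymphoid organs. IL-2, read through CD25 and STAT5, is known to support Treg survival and division.

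The promoters of the S and G2/M genes measured here carried different letters. RefSeq promoter windows on GRCm38.p6, 250 bases before to 50 after the start, were searched on both strands for the CHR (TTTGAA or TTCGAA) and for an E2F site (TTTCCCGC, TTTGCCGC, TTTCGCGC or TTTGGCGC). The CHR letters stood in 31 of 41 G2/M genes with a window (75.6%), in 5 of 31 S genes (16.1%) and in 19.4% of all 27025 genes. The E2F letters stood in 1 of 41 G2/M genes (2.44%), 11 of 31 S genes (35.5%) and 2.32% of all genes. CCAAT was common to both sets, with 32 of 41 G2/M genes (78.0%) and 22 of 31 S genes (71.0%) against 37.9% of all genes. Of the 2044 genes that averaged 50 CPM or more in cycling cells, 16.3% held the CHR letters, 6.31% the E2F letters and 40.2% CCAAT. Of the 7 genes that define cycling cells, 4 held the CHR letters and 2 the E2F letters. These are matches of letters and not measured binding, and CHR and E2F letters overlap in none of the promoters shown.

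To show the pattern, 150 bases before the start are printed, 5′ to 3′ on the gene's strand, for the 3 most abundant genes of each kind whose motif lies there, with the motif in capitals. The CHR set is Hmgb2 (chr8:57511693-57511842, plus strand), which encodes a chromatin protein, Top2a (chr11:99024190-99024339, minus strand), a topoisomerase that untangles chromosomes, and Mki67 (chr7:135716380-135716529, minus strand), which coats mitotic chromosomes.
Hmgb2: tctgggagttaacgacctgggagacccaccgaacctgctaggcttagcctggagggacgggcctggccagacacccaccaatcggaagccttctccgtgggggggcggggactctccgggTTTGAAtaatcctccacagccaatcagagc
Top2a: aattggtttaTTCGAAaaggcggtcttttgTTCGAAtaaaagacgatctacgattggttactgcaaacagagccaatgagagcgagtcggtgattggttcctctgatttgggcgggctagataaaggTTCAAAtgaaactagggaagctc
Mki67: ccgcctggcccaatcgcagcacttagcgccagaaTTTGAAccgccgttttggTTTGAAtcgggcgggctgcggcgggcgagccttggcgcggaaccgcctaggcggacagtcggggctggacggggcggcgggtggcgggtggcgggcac
The E2F set is Mcm6 (chr1:128359706-128359855, minus strand) and Mcm5 (chr8:75109359-75109508, plus strand), subunits of the replicative helicase, and Hells (chr19:38930840-38930989, plus strand), a chromatin remodeller. In Mcm6 the first capital run is a pair of overlapping E2F matches on opposite strands.
Mcm6: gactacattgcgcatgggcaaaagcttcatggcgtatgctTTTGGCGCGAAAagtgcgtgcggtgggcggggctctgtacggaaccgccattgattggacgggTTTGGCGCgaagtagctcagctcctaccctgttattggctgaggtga
Hells: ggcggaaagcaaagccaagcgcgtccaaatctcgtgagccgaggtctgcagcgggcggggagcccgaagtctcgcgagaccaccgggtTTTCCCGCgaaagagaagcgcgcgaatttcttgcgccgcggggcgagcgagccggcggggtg
Mcm5: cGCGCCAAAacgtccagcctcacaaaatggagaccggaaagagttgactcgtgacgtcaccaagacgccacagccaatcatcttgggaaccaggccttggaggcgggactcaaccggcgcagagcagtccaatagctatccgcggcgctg

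Cycling cells made up 3.42% (3.003 to 3.875) of kept CD25KO cells and 1.54% (1.24 to 1.88) of kept CD25WT cells. The share was 2.22 times as high in CD25KO (1.74 to 2.86). In Cd3 cells it was 3.18% (2.77 to 3.62) in CD25KO, 214 of 6736, and 1.20% (0.938 to 1.51) in CD25WT, 71 of 5918. CD25KO cells were shallower as a whole, so each cell was also thinned at random to 2000 UMIs, which left out 372 CD25KO and 88 CD25WT cells below that depth. At this common depth the rule was met by 137 of 6530 CD25KO cells (2.10%) and 37 of 5963 CD25WT cells (0.620%), a ratio of 3.38. Among cells with no Il2ra UMI the shares were 3.08% of 6080 CD25KO and 1.47% of 3947 CD25WT cells.

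The number of rule genes per cell took every value the rule allows. In CD25KO, 48, 30, 28, 32 and 98 cells held 3, 4, 5, 6 and 7 of the 7 genes, and in CD25WT 26, 15, 14, 9 and 29 cells did. Cells with all 7 genes were the most frequent kind of cycling cell in both libraries, 41.5% of them in CD25KO and 31.2% in CD25WT. Just outside the rule stood 122 CD25KO and 45 CD25WT cells with 2 of the genes. In CD25KO, cells just inside the rule, with 3 genes, had 6641 CPM of the G2/M list, against 3270 CPM in those just outside, and in CD25WT 5986 against 2986 CPM. The cells inside were also deeper, with medians of 11016.5 against 8060 UMIs in CD25KO and 11215 against 8665 in CD25WT.

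**Figure D1:**
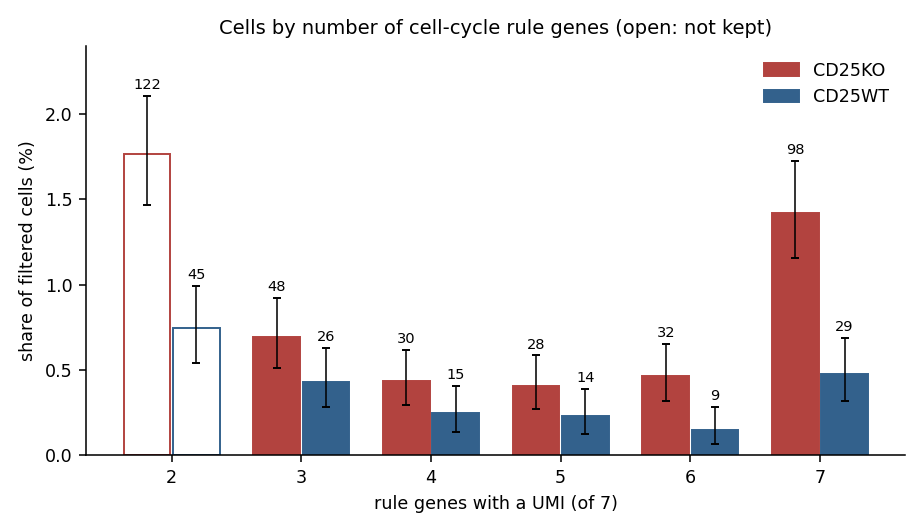
Percent of kept cells (vertical axis) that held 2 to 7 of the 7 rule genes (horizontal axis) in the CD25KO and CD25WT libraries, with Clopper-Pearson intervals and the number of cells above each bar; open bars hold 2 genes and fall outside the rule. Cells with 7 genes made up 1.42% of CD25KO and 0.479% of CD25WT cells.

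All 7 rule genes were at a higher level in CD25KO than in CD25WT cycling cells. Because the rule used them, these values are a description. Cenpf, a kinetochore protein of late G2, was at 304 CPM in CD25KO and 167 CPM in CD25WT cycling cells, a log2 ratio of 0.86 (0.66 to 1.07). Birc5 (survivin), of the chromosomal passenger complex, was at 567 and 404 CPM, a log2 ratio of 0.49 (0.36 to 0.63). The smallest ratios were those of Top2a, 807 and 704 CPM (log2 ratio 0.20), and of Pclaf, a partner of the replication clamp, 829 and 714 CPM (log2 ratio 0.22).

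The cycling cells of CD25KO leaned further towards G2/M than those of CD25WT. Apart from Pclaf, the rule genes are themselves counted as G2/M genes, so the rule is weighted towards cells in that phase. The part of the rule in the S and G2/M values of either library was not tested. Lists of 43 S and 48 G2/M genes, free of the rule genes, summed to 4074 and 13484 CPM in CD25KO and to 5405 and 10187 CPM in CD25WT cycling cells. In other cells the lists stood at 825 and 2011 CPM in CD25KO and at 696 and 1772 CPM in CD25WT. Cells with more S than G2/M UMIs, called S-leaning, were 34 of 236 (14.4%, 10.2 to 19.5) in CD25KO and 29 of 93 (31.2%, 21.98 to 41.63) in CD25WT. Hmgb2 alone averaged 4902 CPM in cycling cells of both libraries, a large part of the G2/M sums, and no share was taken without it. Of the UMIs on both lists, S genes took a median of 20.3% in CD25KO and 39.1% in CD25WT cells. In Cd3 cells the S-leaning share was 14.5% (31 of 214) in CD25KO and 35.2% (25 of 71) in CD25WT, and at 2000 UMIs per cell it was 12.5% (29 of 232) and 27.9% (24 of 86). The class is a range on a scale and not a cell type: 48 CD25KO and 29 CD25WT cells had an S share between 40 and 60%. With each list scaled to the same total, 40.3% of CD25KO and 61.3% of CD25WT cells were S-leaning. With the 5% of cells richest in UMIs left out, 8 of 68 CD25KO (11.8%) and 5 of 27 CD25WT (18.5%) were.

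**Figure D2:**
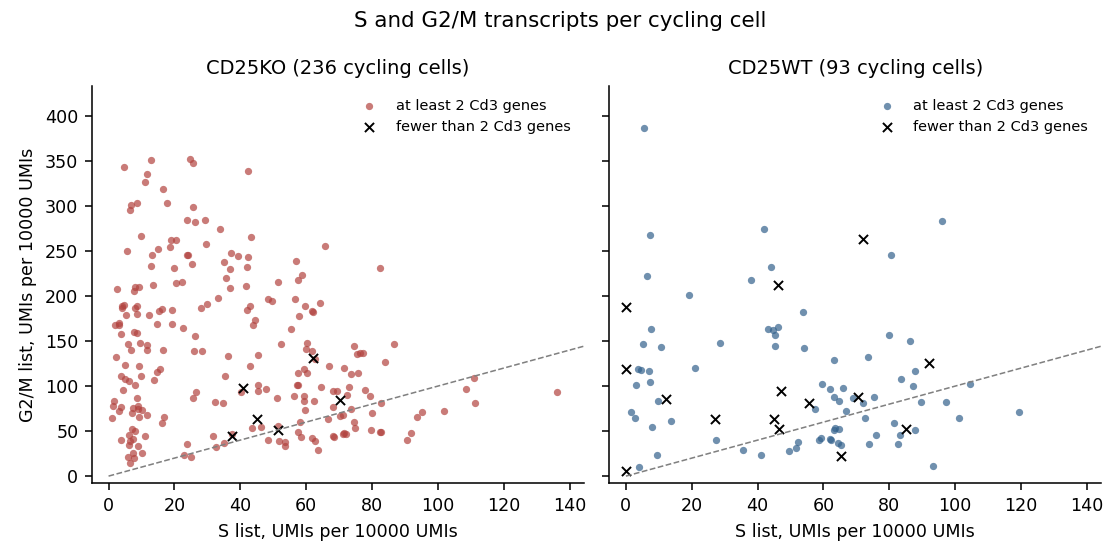
S-list against G2/M-list UMIs of each cycling cell, per 10000 UMIs, in CD25KO (left, 236 cells) and CD25WT (right, 93 cells), with a dashed line of equal UMIs and crosses for cells with fewer than 2 Cd3 genes. Points below the line are the S-leaning cells, 34 in CD25KO and 29 in CD25WT.

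Cyclins switch the cell cycle kinases on in turn, and Ccna2 (cyclin A2), Ccnb1 (cyclin B1) and Ccnd2 (cyclin D2) are on neither phase list. Their levels differed between S-leaning and remaining cells. Ccna2 was at 27.0 CPM in S-leaning and 213 CPM in the remaining cycling cells of CD25KO, and at 36.3 and 169 CPM in CD25WT. Ccnb1, the mitotic cyclin, was at 13.5 against 170 CPM in CD25KO and at 4.03 against 98.8 CPM in CD25WT. Ccnd2, which acts in G1, ran the other way, at 294 against 160 CPM in CD25KO and 357 against 180 CPM in CD25WT. Levels of list members in the 2 kinds of cell are a description, since the lists made the split. Ung, which removes uracil from DNA, was at 111 against 10.7 CPM in CD25KO and 139 against 22.6 CPM in CD25WT, and Ube2c, the mitotic exit ubiquitin enzyme, at 32.1 against 612 CPM and 12.1 against 456 CPM. Pcna, the replication clamp, was less contrasted in CD25WT, at 454 against 395 CPM, than in CD25KO, at 657 against 278 CPM.

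Gene by gene, cycling cells of CD25KO had more of the late and less of the early transcripts than those of CD25WT. Over the 2553 genes that averaged 50 CPM or more in cycling cells, 161 (6.31%) were higher in CD25KO by 1.5-fold or more and 49 (1.92%) lower, and the median log2 ratio was 0.11. Of 31 measured S genes, 0 were 1.5-fold higher, 7 were 1.5-fold lower and none had a log2 ratio above 0 (median -0.40). Of 33 measured G2/M genes, 7 were 1.5-fold higher, 0 were 1.5-fold lower and 29 had a log2 ratio above 0 (median 0.46). In Cd3 cells the medians were -0.38 for S and 0.56 for G2/M genes.

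The late genes covered the mitotic spindle and the exit from mitosis. Spindle and cytokinesis genes had a median log2 ratio of 0.53 (6 of 12 higher by 1.5-fold), the ubiquitin ligase of mitotic exit and its targets 0.53 (3 of 7), and kinetochore and checkpoint genes 0.39 (3 of 13). Plk1, a kinase that drives mitotic entry, was at 78.6 CPM in CD25KO and 38.5 CPM in CD25WT cycling cells, a log2 ratio of 1.03 (0.61 to 1.47). Ccnb1 was at 145 and 65.9 CPM (log2 ratio 1.14, 0.82 to 1.47), although 3 pseudogene copies have a near-identical 3′ end. Cdc20, an activator of the ubiquitin ligase that starts anaphase, was at 144 and 79.2 CPM, a log2 ratio of 0.86 (0.56 to 1.16). Cenpa, the centromeric histone, was at 493 and 275 CPM, a log2 ratio of 0.84 (0.68 to 0.999).

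The early genes covered the licensing of origins and the replication machinery. Origin licensing and helicase genes had a median log2 ratio of -0.41 (2 of 9 lower by 1.5-fold), DNA polymerases and clamp genes -0.45 (2 of 10), and nucleotide synthesis genes -0.22 (1 of 10). Cdca7, a chromatin factor that works with Hells, was at 59.8 CPM in CD25KO and 113 CPM in CD25WT cycling cells, a log2 ratio of -0.92 (-1.21 to -0.62). Dtl, which directs destruction of the licensing factor Cdt1, was at 51.8 and 93.9 CPM, a log2 ratio of -0.86 (-1.18 to -0.53). Mcm6 was at 187 and 284 CPM, a log2 ratio of -0.61 (-0.79 to -0.43). In other cells Dtl and Mcm6 ran the other way, with log2 ratios of 0.49 and 0.57. With S-leaning and remaining cells weighted as in CD25WT, Cdca7 and Dtl had log2 ratios of -0.40 and -0.41.

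By their state genes, cycling cells were mostly of effector kind in CD25KO and mixed in CD25WT. A cell was given a state if at least 2 of its 8 markers had a UMI after thinning to 2000 UMIs per cell, and a cell can carry several states. The effector state was found in 184 of 232 CD25KO cycling cells (79.3%, 73.5 to 84.3), against 35.2% of other CD25KO cells. In CD25WT it was found in 39 of 86 cycling cells (45.3%, 34.6 to 56.5), against 13.0% of other cells. Without the 5% of cells richest in UMIs it was found in 55 of 64 CD25KO cycling cells (85.9%, 74.98 to 93.4), against 34.7% of other cells, and in 5 of 20 CD25WT cycling cells (25%, 8.66 to 49.1), against 12.9%, where the interval includes the share of other cells. Without thinning these shares were 94.5 against 47.6% in CD25KO and 69.9 against 24.5% in CD25WT. In Cd3 cells at 2000 UMIs they were 81.3 against 35.4% and 50.7 against 13.0%. The summed level of the 8 markers had the same order, 7032 against 2626 CPM in CD25KO and 3912 against 741 CPM in CD25WT.

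Most of that level came from 4 genes of cell movement and adhesion. Lgals1 (galectin-1) was at 2866 CPM in cycling and 654 CPM in other CD25KO cells, and at 1771 and 266 CPM in CD25WT. S100a6, a calcium-binding protein, was at 2240 and 872 CPM in CD25KO and 1003 and 168 CPM in CD25WT. S100a4 was at 988 and 561 CPM in CD25KO and 701 and 144 CPM in CD25WT, and an overlapping gene model shares its 3′ end. Itgb1, the beta-1 integrin, was at 727 and 413 CPM in CD25KO and 378 and 143 CPM in CD25WT. The markers Klrg1 and Fgl2, by contrast, were at 26.6 CPM or less in each kind of cell and had no common direction. In CD25KO, Fgl2 was lower in cycling than in other cells, at 19.8 against 26.6 CPM, and Klrg1 higher, at 18.3 against 16.0 CPM. In CD25WT each had the opposite order, at 4.20 CPM or less. From the other 4 markers alone (Ccr2, Gzmb, Klrg1 and Fgl2) at least 1 was seen in 23.7% of cycling and 11.3% of other CD25KO cells, and in 12.8 and 2.54% of CD25WT cells.

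Seen from the states, cycling was more frequent inside the effector state than outside it in both libraries. With cycling called at full depth and the state at 2000 UMIs, 7.66% (6.63 to 8.79) of effector CD25KO cells were cycling, against 1.16% (0.859 to 1.54) of the remaining CD25KO cells. In CD25WT the shares were 4.85% (3.47 to 6.57) and 0.911% (0.670 to 1.21). With the effector share of CD25WT applied to CD25KO, the cycling share of CD25KO was 2.04%, against 1.44% in CD25WT, a ratio of 1.41 where the counted cells gave 2.46. The same step gave 1.52 in place of 2.75 in Cd3 cells and 2.21 with the effector state taken from the 4 less abundant markers. With the other states at 2000 UMIs it gave 2.13 (resting central) to 2.50 (recently stimulated). Unthinned, where the counted ratio was 2.22, it gave 1.26 with the effector, 1.24 with the ST2, 1.33 with the follicular regulatory and 1.47 with the Th1-type state. The unthinned resting central state gave 2.78. Whether the mix of states bears on the cycling share was not tested. The effector share also differed with phase, at 64.7% of 34 S-leaning and 81.8% of 198 remaining cycling cells in CD25KO, and at 33.3% of 27 and 50.9% of 59 cells in CD25WT.

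The resting central state, whose markers include the homing receptor Ccr7 and the factor Lef1, was less frequent in cycling cells. It was found in 15.1% (10.7 to 20.4) of cycling and 25.4% of other CD25KO cells, and in 20.9% (12.9 to 31.1) of cycling and 51.3% of other CD25WT cells. Without thinning the CD25KO shares had the opposite order, 67.4 against 45.8%, while the summed level of the markers was 475 against 683 CPM. In CD25WT the unthinned shares were 72.0 against 76.7% and the levels 634 against 1196 CPM. Both states together were carried by 10.8% of cycling and 5.48% of other CD25KO cells, and by 4.65 and 3.40% of CD25WT cells.

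Of the remaining states, interferon and recently stimulated had lower thinned shares and summed levels in cycling cells of both libraries, and the others gave less uniform values. The follicular regulatory state, named after cells that control germinal centres, was found in 40.1% of cycling and 41.3% of other CD25KO cells, at 1015 and 1407 CPM. In CD25WT it was found in 17.4 and 13.7% of cells, at 636 and 485 CPM. Its most frequent markers were Maf and Sh2d1a, in 56.9 and 44.8% of cycling CD25KO cells. Cxcr5 was found in 1.29% of cycling and 3.62% of other CD25KO cells, and Bcl6 in 1.72 and 4.27%. Cxcr5 was found in 0 of 86 cycling CD25WT cells, so the state does not identify follicular cells. The Th1-type state was found in 23.7% (18.4 to 29.7) of cycling and 11.7% of other CD25KO cells, and in Cd3 cells in 25.2 and 11.8%. All 55 of these cycling cells also carried the effector state. The summed level of its markers was 628 and 635 CPM, so no order of level is read. Nkg7, Cxcr3, Tbx21 and Cxcr6 were higher in cycling CD25KO cells, and Ccl5 (89.1 against 280 CPM), Il18r1, Ifng and Il12rb2 were lower. In CD25WT the Th1-type state was found in 4 of 86 cycling cells (4.65%) and 2.42% of other cells. The tissue-type state, named after the IL-33 receptor ST2, was found in 15.1 and 15.9% of CD25KO and in 10.5 and 3.83% of CD25WT cells. Few of these cells showed ST2 itself. Its gene Il1rl1 was found in 2 of 232 cycling CD25KO cells (0.862%, against 2.89% of other cells). In CD25WT it was found in 1 of 86 (1.16%, against 0.766%). The most frequent markers of this state were Gata3, Batf and Rora, in 28.9, 27.2 and 16.4% of cycling CD25KO cells. Summed levels of the interferon markers were 288 against 507 CPM in CD25KO and 301 against 467 CPM in CD25WT, and those of the recently stimulated markers 136 against 272 and 92.5 against 177 CPM. The interferon state was found in 11.2% (7.45 to 16.0) of cycling and 17.1% of other CD25KO cells, and in 10.5% (4.90 to 18.9) and 16.2% of CD25WT cells, where the interval of the cycling cells includes the share of the others. The recently stimulated state was found in 3.45% (1.5 to 6.68) and 7.05% of CD25KO cells, and in 0 of 86 cycling (upper limit 4.20%) and 4.13% of other CD25WT cells. Unthinned shares had the opposite order, for interferon 55.1 against 35.4% in CD25KO and 48.4 against 38.9% in CD25WT, and for recently stimulated 18.2 against 13.0% and 17.2 against 9.20%. None of the 7 states was found in 6.03% of cycling and 16.4% of other CD25KO cells, and in 29.1 and 24.1% of CD25WT cells. In Cd3 cells the CD25WT shares had the opposite order, 19.7% (11.2 to 30.9) of cycling and 23.9% of other cells.

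**Figure D3:**
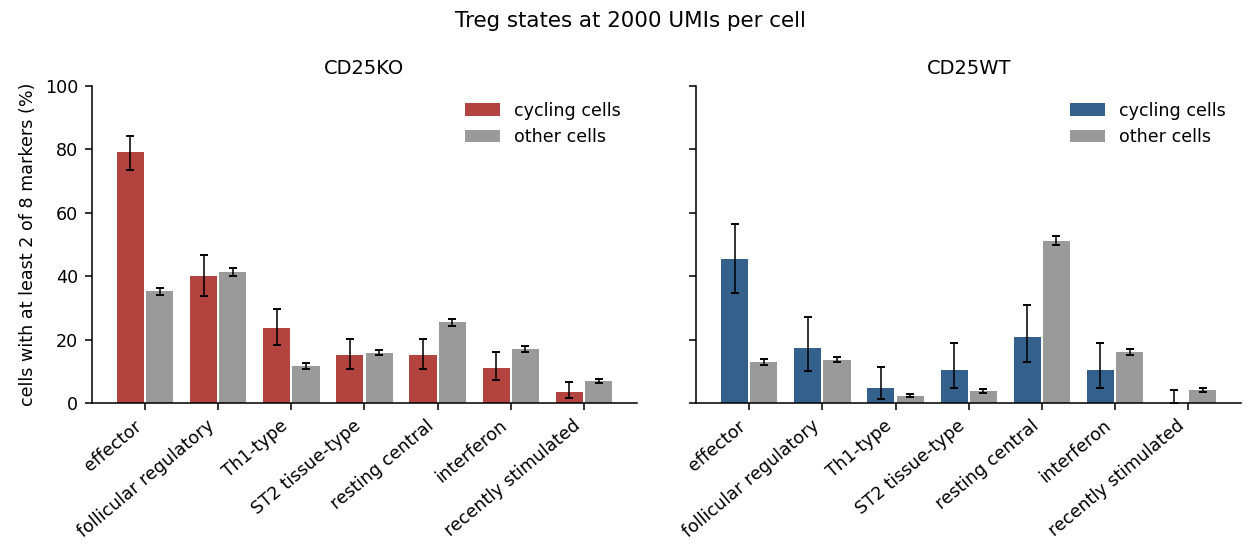
Percent of cells in each of the 7 states at 2000 UMIs per cell, for cycling and other cells of CD25KO (left) and CD25WT (right), with Clopper-Pearson intervals. The effector state holds 79.3 against 35.2% in CD25KO and 45.3 against 13.0% in CD25WT.

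Most Treg identity genes were at levels near or below those of other cells, with exceptions in CD25WT. Foxp3 gave few UMIs, 38 in CD25KO and 13 in CD25WT cycling cells, which are 10.1 against 23.1 CPM in other CD25KO cells and 9.11 against 35.3 CPM in other CD25WT cells. Unthinned, Foxp3 was found in 14.4% of cycling and 9.83% of other CD25KO cells, and in 12.9 and 16.0% of CD25WT cells. Thinned to the common depth, the CD25KO shares had the opposite order, 6 of 232 cycling cells (2.59%, 0.955 to 5.54) against 5.02% of other cells. That interval includes the share of other cells. Thinned CD25WT cells held it in 0 of 86 cycling (upper limit 4.20%) and 6.64% of other cells. Ikzf2 (Helios), a partner factor of Foxp3, was at 1004 CPM in cycling and 1691 CPM in other CD25KO cells, and at 888 and 735 CPM in CD25WT. Izumo1r, the folate receptor 4 of Tregs, was lower in cycling cells of both, at 224 against 768 CPM in CD25KO and 327 against 514 CPM in CD25WT. Over 11 measured identity genes the median log2 ratio of cycling over other cells was -0.69 in CD25KO, with 7 lower by 1.5-fold, and -0.14 in CD25WT, with 1 lower and 1 higher. In Cd3 cells the medians were -0.61 and -0.11.

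Relative to all UMIs, the IL-2 receptor chains were lower in cycling than in other cells of both libraries. Cycling cells held more UMIs, and the unthinned shares of cells had the opposite order. Il2ra was found in 20.8% of cycling and 11.6% of other CD25KO cells, and in 37.6 and 34.7% of CD25WT cells. Il2rb was found in 83.1 and 51.8% of CD25KO and in 63.4 and 50.1% of CD25WT cells. At 2000 UMIs Il2ra was found in 3.88% of cycling and 6.27% of other CD25KO cells, and in 10.5 and 18.5% of CD25WT cells. Il2rb was then found in 31.0% of both kinds of CD25KO cell, and in 22.1 and 26.7% of CD25WT cells. Il2ra was at 19.6 against 33.9 CPM in CD25KO and 56.8 against 128 CPM in CD25WT. Il2rb, the signalling beta chain, was at 181 against 201 CPM in CD25KO and 153 against 180 CPM in CD25WT, and Il2rg, the common gamma chain, at 210 against 308 CPM and 162 against 252 CPM. The Il2rb difference is small: its log2 ratios of -0.15 in CD25KO and -0.23 in CD25WT were -0.10 and -0.15 in Cd3 cells with intervals that cross 0, and the first is no larger than the shift of all genes between scalings given with the counts of genes. Between libraries, CD25KO over CD25WT, Il2ra had a log2 ratio of -1.54 (-2.01 to -1.06) in cycling and -1.91 in other cells, a level that the gate itself selects on and that is no check of the deletion. For the next shares cycling was called at full depth and Il2ra at 2000 UMIs per cell. In CD25KO 9 of 404 cells with an Il2ra UMI (2.23%, 1.02 to 4.19) and 223 of 6126 without one (3.64%, 3.19 to 4.14) were cycling. In CD25WT 9 of 1097 (0.820%, 0.376 to 1.55) and 77 of 4866 (1.58%, 1.25 to 1.97) were. Genes that respond to IL-2 and STAT5 were lower in cycling cells as a list, with a median log2 ratio of -1.05 in CD25KO (6 of 8 lower by 1.5-fold) and -0.59 in CD25WT (4 of 8). Socs1, a feedback inhibitor of this pathway, was at 30.7 against 92.1 CPM in CD25KO and 58.9 against 111 CPM in CD25WT.

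Outside the cell cycle lists, cycling cells of both libraries had more of the transcripts for chromatin and energy metabolism and fewer of those for quiescence. Of 2533 genes that averaged 50 CPM or more over cycling and other cells, 211 (8.33%) in CD25KO and 271 (10.7%) in CD25WT were higher in cycling cells by 2-fold or more, and 116 (4.58%) and 87 (3.43%) were lower. In Cd3 cells 206 and 265 were higher and 97 and 75 lower. At 1.5-fold, the limit used for lists, 463 (18.3%) were higher and 352 (13.9%) lower in CD25KO, and 593 (23.4%) higher and 298 (11.8%) lower in CD25WT. The median of all these log2 ratios was 0.02 in CD25KO and 0.13 in CD25WT. It moved to 0.18 and 0.04 with median-of-ratios factors, to 0.10 and -0.03 with TMM factors, and to -0.13 and -0.12 without ribosomal protein and mitochondrial genes in the total. The split of higher against lower genes moved with it. In CD25KO 64.5% of the 2-fold genes were higher with the total, 72.5% with TMM, 78.2% with median-of-ratios factors and 50.3% without those genes, and in CD25WT 75.7, 58.4, 65.5 and 53.8%.

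The genes highest in cycling cells outside the rule and phase lists were also mitotic and replication genes. Ccna2 was at 184 CPM in cycling and 0.379 CPM in other CD25KO cells, and at 123 and 0.267 CPM in CD25WT, log2 ratios of 8.92 and 8.84. Knl1, a scaffold of the kinetochore, had log2 ratios of 6.85 in CD25KO and 7.90 in CD25WT, and Spc24, of the same structure, 5.86 and 7.21. Stmn1 (stathmin), which takes microtubules apart, had log2 ratios of 5.72 and 5.86, and Tk1, the thymidine kinase of the salvage pathway, 4.87 and 5.73. Histone genes Hist1h1b (7.57 and 8.32) and Hist1h2ae (6.39 and 6.10) also stood among these 10, the second with near-identical copies. All 17 measured chromatin and tubulin genes were higher by 1.5-fold in both libraries, with medians of 2.01 and 2.24.

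Metabolic lists were shifted in the same direction by less. Glycolysis genes had median log2 ratios of 0.81 in CD25KO and 0.90 in CD25WT, with 7 and 6 of 10 higher by 1.5-fold and 0 lower. Gapdh was at 1819 against 886 CPM in CD25KO and 1641 against 636 CPM in CD25WT. Oxidative phosphorylation genes had medians of 0.64 and 0.69, with 14 and 16 of 22 higher. Genes of Myc and ribosome biogenesis had medians of 0.46 and 0.54, with 2 and 5 of 12 higher, but in Cd3 cells 0.18 and 0.53, with 0 and 6 higher. For glycolysis the medians in Cd3 cells were 0.70 and 0.91. Ribosomal protein genes themselves took 27.5% of UMIs in cycling and 31.4% in other CD25KO cells, and 31.6 and 39.7% in CD25WT.

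Genes of resting lymphocytes were lower in cycling cells. The quiescence list had medians of -0.97 in CD25KO and -1.11 in CD25WT, with 11 and 14 of 16 lower by 1.5-fold. Pik3ip1, an inhibitor of PI3 kinase, was at 11.4 against 61.3 CPM in CD25KO and 20.3 against 118 CPM in CD25WT, log2 ratios of -2.43 and -2.53. Il7r, the IL-7 receptor, was at 116 against 496 CPM in CD25KO and 79.9 against 416 CPM in CD25WT. Btg1, which restrains proliferation (log2 ratios -2.47 and -1.74), Txnip, which limits glucose uptake (-1.73 and -2.11), and Bcl2, which blocks cell death (-1.71 and -1.64), were also among the 12 lowest. Interferon state genes had medians of -0.79 and -0.62, each with 2 of 3 lower. Costimulatory TNF receptors had medians of -1.18 (3 of 3 lower) in CD25KO and -0.14 (1 of 3) in CD25WT, led by Tnfrsf4 (OX40) at 167 against 379 CPM in CD25KO and 144 against 155 CPM in CD25WT.

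**Figure D4:**
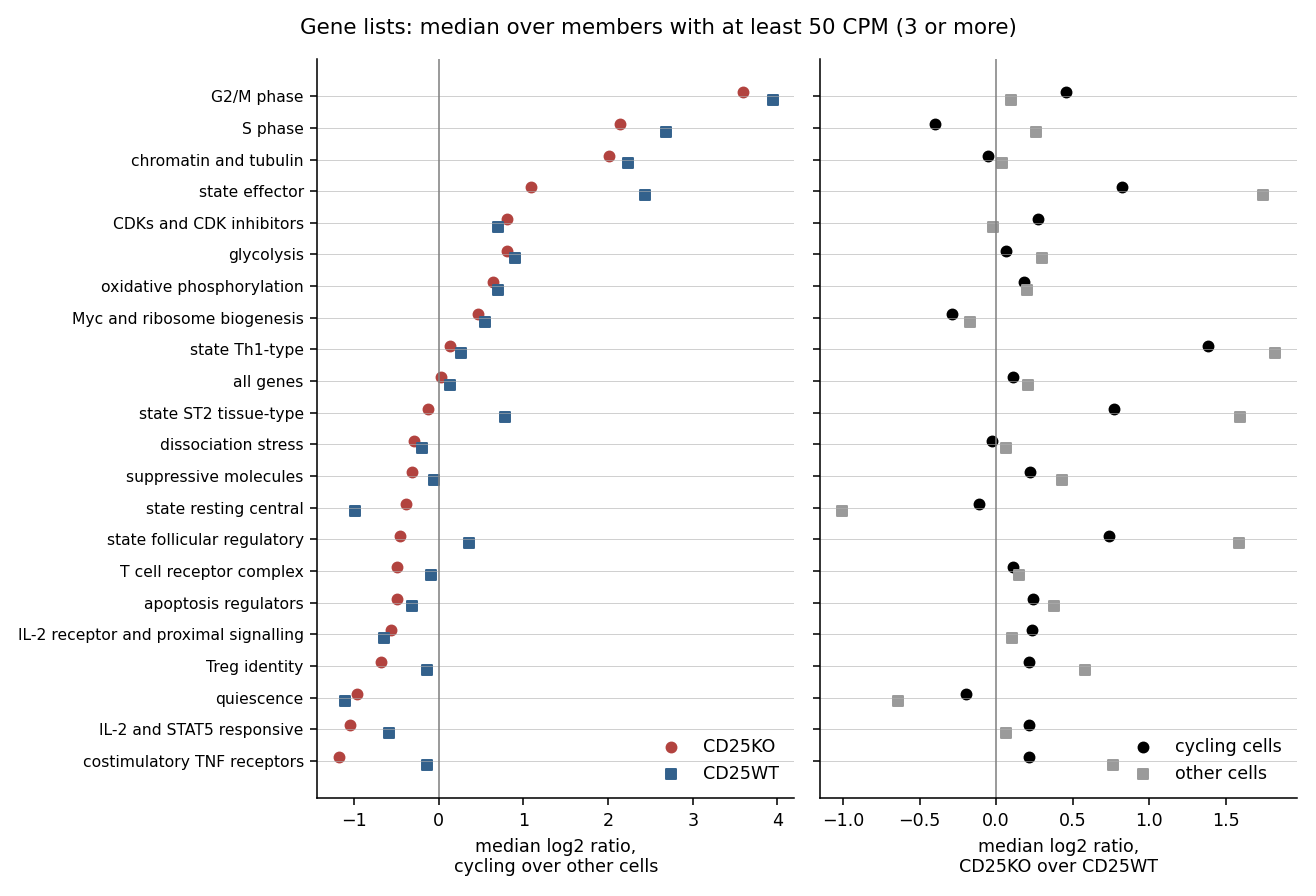
Median log2 ratio of gene lists with at least 3 measured members in every comparison (at least 50 CPM on average): cycling over other cells in CD25KO and CD25WT (left), and CD25KO over CD25WT in cycling and in other cells (right), with the medians of all genes in the row all genes. On the left the phase, chromatin and effector lists lie above 0 and the quiescence and IL-2 response lists below 0 in both libraries.

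Between CD25KO and CD25WT cycling cells, the genes with the highest ratios included cytotoxic, Th1-type and effector genes. Of the 2553 genes, 34 (1.33%) were higher in CD25KO by 2-fold or more and 15 (0.588%) lower, and in Cd3 cells 42 and 15. The counts depend on the cells and on the minimum level: without the 5% of cells richest in UMIs 235 were higher and 127 lower, and with genes of at least 1 UMI in each group 711 were higher and 1168 lower. Among other cells 64 of 2478 genes (2.58%) were 2-fold higher and 12 (0.484%) 2-fold lower, and at 1.5-fold 213 (8.6%) were higher and 37 (1.49%) lower. The genes named here had a counting interval that excluded 0 and the same direction in S-leaning and remaining cycling cells.

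Gzmb (granzyme B, chromosome 14, 56258838 to 56262260 on mm10), a protease of cytotoxic granules, was at 113 CPM in CD25KO and 7.71 CPM in CD25WT cycling cells. Its log2 ratio was 3.87 (3.02 to 4.88), from 426 UMIs in 56 CD25KO cells and 11 UMIs in 6 CD25WT cells. In other cells it was at 31.5 and 1.07 CPM, a log2 ratio of 4.88. Nkg7, of the same granules, was at 261 and 58.9 CPM in cycling cells (log2 ratio 2.15, 1.83 to 2.49), and at 125 and 31.2 CPM in other cells. Both genes were thus higher in cycling than in other cells of each library, and higher in CD25KO than in CD25WT in each kind of cell. Ccl5, a chemokine of Th1-type cells, was at 89.1 and 30.8 CPM in cycling cells and at 280 and 36.9 CPM in other cells, log2 ratios of 1.53 and 2.93.

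The other genes of this end were Sostdc1, a marker of follicular regulatory cells (log2 ratio 1.93), Casp1, the inflammasome protease (1.63), Ly6a, the stem cell antigen 1 (1.56), Lgals3, galectin-3 (1.52), Ube2m, an enzyme of neddylation (1.52), Ppp1r14b, a phosphatase inhibitor (1.52), Map4k4, a kinase (1.38), H1f0, a linker histone (1.37), and Kif2a, a kinesin that shortens microtubules (1.35). All 9 were above 0 in other cells too, from 0.87 for Map4k4 to 2.45 for Lgals3. Over the members measured in each kind of cell, 6 and 4 for the effector list and the same number for the others, state lists had smaller ratios in cycling than in other cells. The medians were 0.82 and 1.74 for the effector list, 0.74 and 1.59 for the follicular regulatory list, 0.77 and 1.59 for the ST2 list and 1.38 and 1.82 for the Th1-type list, against 0.11 and 0.21 over all genes. The difference between these values was not tested.

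The lower end included Bcl2, Ccr7 and Foxp1, whose ratios lay below the list medians given here. The quiescence list had a median of -0.20, with 4 of 14 measured genes lower by 1.5-fold and 1 higher. The list of apoptosis regulators had a median of 0.24, with 1 of 6 lower and 2 higher. Over all 2553 genes the median was 0.11, with 1.92% lower and 6.31% higher by 1.5-fold. Bcl2, which blocks cell death, was at 56.3 CPM in CD25KO and 142 CPM in CD25WT cycling cells, a log2 ratio of -1.33 (-1.61 to -1.04), and at 184 and 440 CPM in other cells. Ccr7, the receptor that guides cells into T cell zones, was at 33.6 and 83.4 CPM (log2 ratio -1.31, -1.68 to -0.94). Foxp1, a factor of quiescent T cells, was at 88.3 and 164 CPM (log2 ratio -0.89, -1.14 to -0.64). Ift80, of ciliary transport (-1.37), Bmyc (-1.18) and Chchd10, a mitochondrial protein (-1.16), were also lower. Socs1, which averaged under 50 CPM in cycling cells and so is not among the 2553 genes, had a log2 ratio of -0.94 (-1.36 to -0.52) in cycling and -0.27 in other cells. Genes of Myc and ribosome biogenesis had a median of -0.29 (1 of 12 lower by 1.5-fold) in all cycling cells and of -0.54 (5 of 12) in Cd3 cells.

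Penk and Hist1h2ap, also of this end, have values that are less certain. Penk, the precursor of enkephalins, was at 20.1 CPM in CD25KO and 100 CPM in CD25WT cycling cells, a log2 ratio of -2.32 (-2.74 to -1.91), while in other cells it was at 98.7 and 19.6 CPM. It came from 76 UMIs in 17 CD25KO cells and 143 UMIs in 7 CD25WT cells, and 1 CD25WT cell held 64 of those. Without the 5% of cells richest in UMIs the log2 ratio was 0.14. Hist1h2ap (-2.24, and -2.61 in other cells) shares its 3′ end with 11 gene models, so its counts are uncertain.

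**Figure D5:**
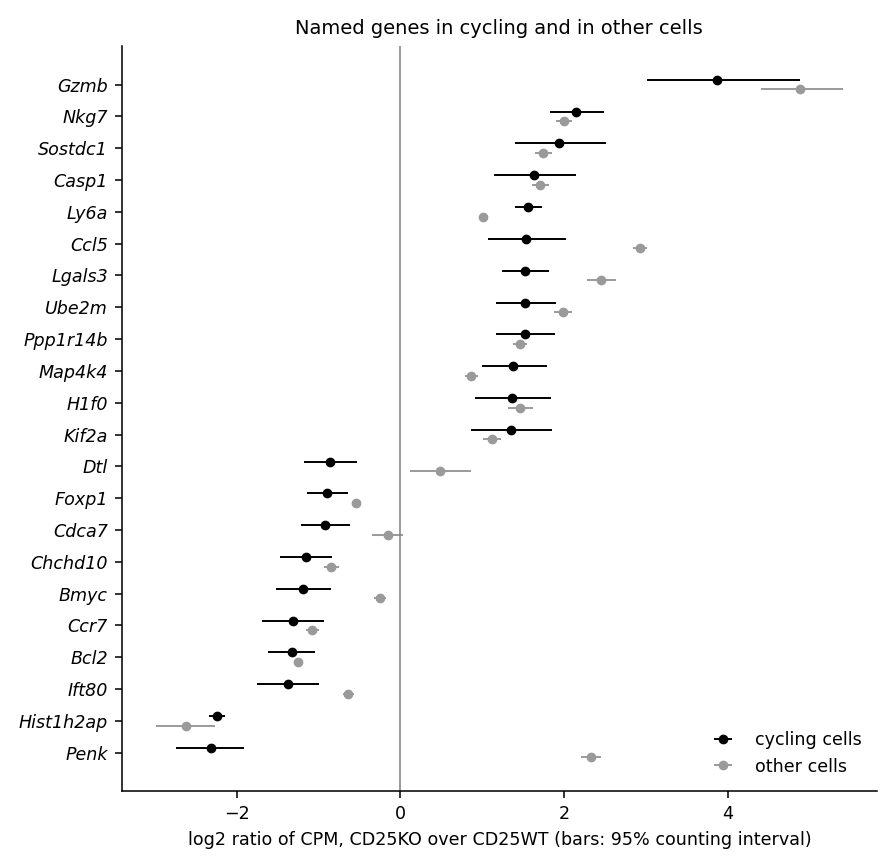
Log2 ratio of CD25KO over CD25WT for the genes named at both ends in cycling and in other cells, with bars for the exact conditional interval. Gzmb is highest in both kinds of cell, and Penk lies at -2.32 in cycling and 2.33 in other cells.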

How the data were processed

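Tregs sorted from spleen were profiled with the 10x Chromium 3' kit, with cells of 2 spleens pooled in each of the 2 libraries (per the labels' protocols and the series' design text). Raw UMI counts for 32285 genes in each barcode were deposited by the authors, not normalized. Cell Ranger 6.0.0 made them, per the file headers. The build is mm10 per the submitters' processing notes, and no source used here names the annotation behind the counts or says whether strand was used.

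The cycling cells, gene lists, markers and rules were chosen with earlier results of these data known, so none is independent support. Of the barcodes, 628 in CD25KO and 569 in CD25WT failed the filters on cells, 50 and 59 of them for a Cd79a UMI alone. UMIs were summed over cells and scaled to CPM with all genes in the total. Genes were compared, with no test, where their mean was at least 50 CPM. Sums of UMIs have exact Poisson intervals behind the exact conditional interval of each log2 ratio, and shares have Clopper-Pearson intervals. Cells are no replicates of a condition, so both intervals cover counting error alone.

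Named genes are the 12 with the largest log2 ratio of CD25KO over CD25WT in each direction that meet the criteria given with them, the 10 highest and 12 lowest in cycling over other cells by the smaller of both libraries' ratios, the rule genes, Foxp3, the IL-2 receptor chains and up to 4 members of each list. A few genes that the rule names are not reported here. The rankings skipped Il2ra, antigen receptor segments, genes of ribosomal proteins, mitochondria, haemoglobin and the Y chromosome, Xist, and gene models with no name. Other state markers, cyclins and identity genes in the text, and the haemoglobin genes of the closing section, stand outside this rule and were chosen after their values were seen. Near-identical 3′ ends were looked for in the GENCODE mouse release 21 transcripts (at least 98% identity over at least 90 of the last 300 bases), and 34 of 189 named genes have one. Promoter windows came from RefSeq on GRCm38.p6, the first window per gene.

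Calculations used Python 3.11.15, NumPy 2.4.6, SciPy 1.17.1 and pandas 2.3.3, with TMM factors from edgeR 4.0.16 as an alternative scaling. The ratio and interval steps were tested on simulated data.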

Additional observations from a re-analysis of the deposited data

Results flagged for a closer look

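Some genes differed between cycling and other cells in opposite directions in the 2 libraries, each beyond its own counting interval. Every direction rests on 1 library and the difference between libraries was not tested. Values are log2 ratios of cycling over other cells, CD25KO first and CD25WT second.

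Penk stood at -2.30 and 2.35, and at -2.69 and 2.62 in Cd3 cells, from few cells as described above. Only the named genes were searched for such differences. Of the 8 follicular regulatory markers, 3 were flagged, as lower in cycling cells of CD25KO and higher in those of CD25WT. They were Maf, a factor of follicular and effector cells, at -0.68 and 0.48, Pdcd1, the inhibitory receptor PD-1, at -0.72 and 0.80, and Sh2d1a, the adaptor SAP, at -0.19 and 0.22. In Cd3 cells Maf had -0.52 and 0.54, Pdcd1 -0.65 and 0.58, and Sh2d1a -0.12 and 0.16, the last with an interval that crosses 0. Of the others, Cxcr5 at 9.11 against 12.1 CPM and Sostdc1 at 21.7 against 29.4 CPM had lower levels in cycling than in other CD25WT cells. Thinned to 2000 UMIs, Maf was found in 56.9% of cycling and 54.5% of other CD25KO cells, and Sh2d1a in 25.6% of both kinds of CD25WT cell. The costimulatory receptor Icos stood at -0.43 and 0.56 and the effector Treg factor Batf at -0.13 and 0.78, with -0.30 and 0.63 and -0.08 and 0.80 in Cd3 cells. The CD25KO value of Batf in Cd3 cells has an interval that crosses 0, and at 2000 UMIs Batf was found in 27.2% of cycling and 24.5% of other CD25KO cells. The value of Batf in CD25KO and that of Sh2d1a in CD25WT are no larger than the shift of all genes between scalings. Cd74, the invariant chain of antigen presenting cells, stood at -0.56 and 0.81, and at -0.46 and 1.10 in Cd3 cells. The summed level of the B cell list, which holds Cd74, was likewise lower in cycling cells of CD25KO and higher in those of CD25WT, and the part of B cell RNA in this value was not tested.

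Haemoglobin genes differed most. Hbb-bs stood at -4.09 and 2.30, Hba-a1 at -3.64 and 2.35, Hba-a2 at -3.96 and 1.79, and Hbb-bt at -3.14 and 2.20. In Cd3 cells the CD25WT values were -1.37, -1.29, -2.33 and -1.13 in that order, all below 0.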

How the results depend on the processing

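Of 143 alternative values of the main results, 90 stayed within the limits set for a move (1.5-fold for counts of genes, the main counting interval for shares), 53 moved and 0 reversed. The alternative that limits cells to Cd3 cells or to barcodes of 1 library and the one that takes the effector state from 4 markers were chosen after seeing the data. No paired analysis was possible because each group is 1 library.

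The cycling share of CD25KO was 5.19% with at least 2 and 2.72% with at least 4 rule genes, 2.10% at 2000 UMIs, 5.33% with at least 1000 genes and at most 5% mitochondrial UMIs, 1.04% without the 5% of cells richest in UMIs and 4.93% in cells with a Foxp3 UMI. That of CD25WT was 2.28%, 1.11% and 0.620% in the first 3 of these settings, 0.470% without the richest cells and 1.20% in Cd3 cells. The ratio was 3.38 at 2000 UMIs, 3.25 with the stricter filter and 3.96 in cells with a Foxp3 UMI. S-leaning shares were 40.3% in CD25KO and 61.3% in CD25WT with scaled lists, and 18.5% in CD25WT without the richest cells. Effector shares in CD25KO and CD25WT were 64.7 and 31.4% with at least 3 markers, 94.5 and 69.9% unthinned, 85.9 and 25% without the richest cells and 23.7 and 12.8% from 4 markers, and 86.9% in CD25KO at 4000 UMIs.

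Counts of genes past 2-fold moved mostly with the minimum level. At 20 CPM, 87 genes were higher and 47 lower in CD25KO over CD25WT, 378 and 288 in cycling over other CD25KO cells, and 526 and 204 in cycling over other CD25WT cells. At 100 CPM these were 13 and 6, 119 and 67, and 141 and 47, and at 1 UMI 711 and 1168, 1824 and 1845, and 2411 and 982. Without ribosomal protein and mitochondrial genes 34 genes were lower in CD25KO over CD25WT, 254 in cycling CD25KO and 263 in cycling CD25WT cells. With that total 58.0% of 2-fold genes were higher in CD25KO over CD25WT, against 69.4% otherwise. Lower genes in cycling CD25WT cells were 149 with TMM, 54 with at least 2 rule genes and 194 without the richest cells. Each cell with the same weight gave 24 lower genes in CD25KO over CD25WT, and leaving out the richest cells gave 235 higher and 127 lower. The cause of these moves was not tested.

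Of 758 other values (named genes, list medians, further states), 632 were stable, 124 moved and 2 reversed: Penk, at 0.14 in CD25KO over CD25WT without the richest cells, and the red cell list in cycling over other CD25WT cells, whose median was -1.33 in Cd3 cells. The 93 CD25WT cycling cells set the precision, and no spread between mice can be given.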
